A study of Mus musculus with 36 samples.

Results

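The 8 genes described here encode the mouse receptors for the Fc part of IgG (Fcgr1, Fcgr3, Fcgr4 and Fcgr2b), the signalling chain that the activating receptors share (Fcer1g) and 3 kinases of the pathway (Lyn, Syk and Btk). They were taken by symbol from a gene-level count table with 54347 rows, in which each symbol matched 1 Ensembl gene, so that all 8 of 8 were found. RNA of primary cells from male C57Bl/6 mice was sequenced in 36 libraries. Macrophages were grown from bone marrow in medium conditioned by L929 cells, myotubes from myoblasts of hindlimb muscle in differentiation medium, adipocytes from precursors of inguinal fat pooled over several animals, and hepatocytes were obtained by perfusing the liver. Cultures of each kind received PBS as control, 5 mM β-hydroxybutyrate (βOHB) or 5 mM butyrate for 6 h, which gave 12 groups of 3 libraries. No group carried a transgene or a deletion. For hepatocytes the study's methods name the substrain C57BL/6NHsd. They also name C57BL/6N mice as a source of some primary cells, without saying which. The source label of the butyrate libraries names butyric acid but abbreviates it as bOHB. Their titles give butyric acid without that abbreviation and their treatment labels butyrate, and groups follow the titles. βOHB is a ketone body, and butyrate is the short-chain fatty acid that lacks its hydroxyl group and inhibits histone deacetylases. The labels do not say whether the 3 libraries of a group came from separate cultures or animals, so p-values measure the spread between these libraries, which may be technical.

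Activating Fc receptors bind antibody-coated particles and, through the immunoreceptor tyrosine-based activation motif (ITAM) of the Fcer1g chain, are phosphorylated by Src family kinases such as Lyn. Syk then docks on the phosphorylated chain and passes the signal to adaptors, phospholipases and Tec family kinases such as Btk, which ends in phagocytosis and release of cytokines. The inhibitory receptor Fcgr2b opposes this by recruiting phosphatases. The receptors are best known from macrophages and other myeloid cells, and Fcgr2b also from B cells and from the sinusoidal endothelium of the liver.

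The receptor genes and the chain lie close together on chromosome 1 of GRCm38, apart from Fcgr1. Fcgr2b is at chr1:170958617-170976547, Fcgr4 at chr1:171018920-171029761, Fcgr3 at chr1:171051174-171064935 and Fcer1g at chr1:171229572-171234365. Fcgr1 is at chr3:96282909-96293969, Lyn at chr4:3678115-3813122, Syk at chr13:52583173-52648792 and Btk at chrX:134542336-134583570. Some of these genes share sequence with others, which bears on how reads were divided between them. Of the 31-base words in the annotated transcripts of Fcgr3, 13.4% also occurred in another gene, and all of those 233 words were in Fcgr2b. The share was 8.15% for Fcgr2b and 22.8% for Lyn, for which the words lay mostly in the unnamed gene Gm11787. It was 1.39% for Fcgr4 and 0.0319% for Syk, whereas Fcgr1, Fcer1g and Btk shared none.

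Promoter sequence is shown for the 5 genes in which the motif described here was found. RefSeq windows of 300 bases (250 before to 50 from the start of transcription on, GRCm38.p6) were found for 7 of the 8 genes, with none for Lyn. The motif searched was GAGGAA on either strand (TTCCTC on the other), the core of the site bound by the myeloid factor PU.1. The 7 genes had 9 windows, since Fcgr3 and Syk have 2 starts each, and the motif occurred in 6 of these 9 and in 28.3% of all 32851 windows. Both windows of Fcgr3 overlap and hold the same match, and the one of start 1 is shown. Each line gives the 100 bases before the start and the first 20 from it, in the direction of the gene, with the motif in capitals.
Fcgr1, minus strand, chr3:96293950-96294069, motif from base -55: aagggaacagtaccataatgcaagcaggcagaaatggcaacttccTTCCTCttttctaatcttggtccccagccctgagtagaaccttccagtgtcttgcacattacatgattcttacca
Fcgr3, minus strand, chr1:171059384-171059503, motif from base -6: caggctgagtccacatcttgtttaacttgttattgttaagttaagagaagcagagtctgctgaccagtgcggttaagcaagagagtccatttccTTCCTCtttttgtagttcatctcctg
Fcgr4, plus strand, chr1:171018826-171018945, motif from base -22: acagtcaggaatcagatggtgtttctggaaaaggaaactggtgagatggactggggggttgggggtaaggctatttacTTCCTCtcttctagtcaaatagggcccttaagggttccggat
Syk, plus strand, start 2 of 2, chr13:52596782-52596901, motif from base -9: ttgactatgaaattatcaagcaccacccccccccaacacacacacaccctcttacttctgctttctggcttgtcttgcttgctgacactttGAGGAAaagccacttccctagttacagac
Btk, minus strand, chrX:134583121-134583240, motif from base 10: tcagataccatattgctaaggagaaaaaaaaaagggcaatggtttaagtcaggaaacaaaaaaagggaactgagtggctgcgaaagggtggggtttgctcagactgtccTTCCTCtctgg

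All 5 matches lay within the printed stretch, and 12.0% of all windows held the motif there. The windows of Fcgr2b and Fcer1g and the other start of Syk did not hold these letters. A match in a window of this kind is a description of its sequence and not a measured binding site.

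In control cultures, all 8 genes were highest in macrophages. Levels are given as CPM, the count of a gene relative to the scaled size of its library, as mean ± SD of 3 libraries. In macrophage controls, Fcer1g reached 537.1 ± 16.4 CPM, Syk 362.5 ± 10.0, Fcgr3 351.2 ± 5.05, Fcgr2b 213.6 ± 3.19, Lyn 184.8 ± 5.17, Btk 72.6 ± 1.88, Fcgr1 42.3 ± 1.50 and Fcgr4 16.2 ± 1.38. On the RPKM scale, which divides CPM by the exon length of the gene and is the one on which genes can be compared with each other, the levels in these cultures were Fcer1g at 614.5, Fcgr3 at 202.3, Lyn at 45.4, Syk at 38.7, Fcgr2b at 36.9, Btk at 23.1, Fcgr1 at 16.4 and Fcgr4 at 12.9. The signalling chain was therefore the most abundant transcript of the set in macrophages, and the receptor Fcgr4 the least.

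**Figure D1:**
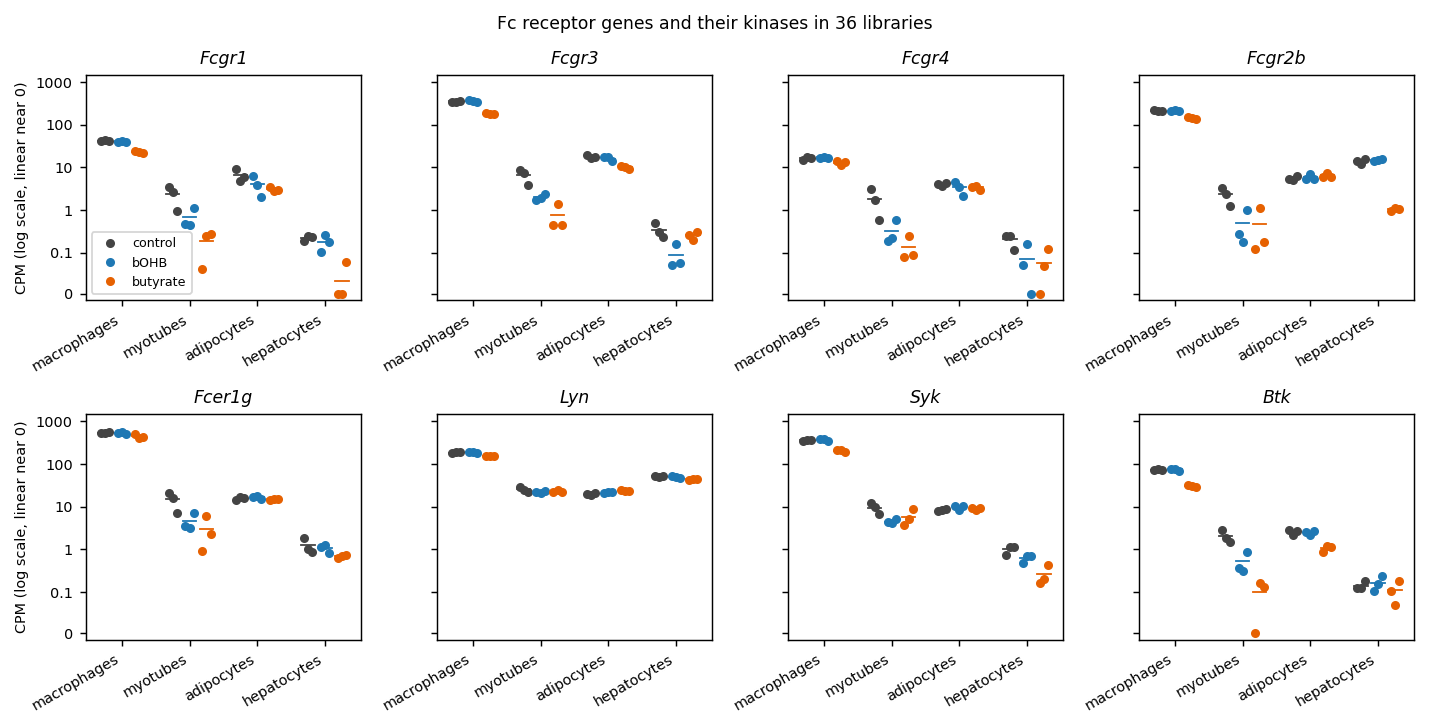
CPM (log scale, linear near 0) of each of the 8 genes in 36 libraries by cell type, with 1 point per library and a line at the mean of 3. Macrophage cultures are highest for every gene, and myotube controls lie above the treated myotubes for most genes, whereas Lyn differs little between treatments.

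The other cell types had a small share of the macrophage level, with a different order for different genes. Myotube controls held between 1.09% (Fcgr2b) and 13.7% (Lyn) of the CPM of macrophage controls. In adipocyte controls the share ran from 2.28% (Syk) to 24.9% (Fcgr4), and in hepatocyte controls from 0.0993% (Fcgr3) to 27.8% (Lyn). Fcgr1, Fcgr3 and Fcgr4 followed the order macrophages, adipocytes, myotubes, hepatocytes, with no overlap between neighbouring groups. For Fcer1g, Syk and Btk the ranges of adipocyte and myotube controls overlapped, and those neighbours did not differ beyond their spread. The order was different for Fcgr2b and Lyn, for which hepatocytes came next after macrophages, at 14.0 ± 1.73 and 51.3 ± 0.505 CPM.

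The libraries held 18366289 to 23221473 estimated counts each. Among the 36 pairs of replicates within a group none was a copy, and libraries of different groups were not compared in this way. All 8 genes passed the filter on low counts through the macrophage libraries. Some were therefore tested in hepatocytes and in treated myotubes at only a few counts. In myotubes Fcgr4 had 67, 39 and 13 counts in controls, 4, 5 and 13 with βOHB and 2, 6 and 2 with butyrate. Fcgr2b had 73, 55 and 28 counts in controls, 6, 4 and 23 with βOHB and 3, 28 and 4 with butyrate. Markers of the labelled cell type were high in every group. The 15 macrophage markers summed to 248 to 685 CPM in myotube controls and 28240 to 28440 CPM in macrophage controls. Libraries that stood apart were 3 myotube libraries with RNA of hepatocyte markers (butyrate replicates 1, 2 and 3 at 33.4, 612.5 and 141.9 CPM over 7 markers) and βOHB replicate 3 at 25.2 CPM, against at most 0.0881 CPM in the other myotube libraries. In macrophage butyrate replicate 3, 10 myotube markers summed to 76.0 CPM, against 22.7 and 28.4 in the other libraries of its group. Fibroblast markers were present in macrophage cultures at 1615 to 2578 CPM.

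In myotube cultures βOHB lowered 7 of the 8 genes, all but Lyn, at an adjusted p below 0.05 (edgeR quasi-likelihood test over all 36 libraries), where 2.56% of the 15340 tested genes were lower. The set was chosen with earlier results of these data known. The study itself names Fcgr3, Syk and Btk as lowered by βOHB in myotubes. The count of 7 is therefore no independent support. The median log2 fold change of the 8 genes was -1.75, against 0.02 over all tested genes. In a culture of mixed cells, fewer cells of a type and less RNA per cell cannot be told apart. The call depended on the other cell types in the fit. With the 9 myotube libraries alone, edgeR called none of the 8 genes and 0% of all tested genes lower, the lowest adjusted p was 0.287, and 7 of the 8 had an unadjusted p below 0.05. With all libraries, limma-voom called 6 and DESeq2 7, where they called 1.83% and 3.58% of all tested genes as lower.

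Fcgr1, the high-affinity IgG receptor, stood at 3.53, 2.60 and 0.968 CPM in control replicates 1, 2 and 3 and at 0.459, 0.444 and 1.11 CPM with βOHB. The third control library lay below the third βOHB library, so the groups overlapped. The fit gave -1.80 ± 0.44 (log2 fold change ± SE, adjusted p = 0.0182), and leaving out control replicate 1 or 2 or βOHB replicate 1 or 2 ended the call. Fcgr3, the low-affinity activating receptor, had 8.61, 7.27 and 3.78 CPM in controls and 1.70, 1.91 and 2.44 CPM with βOHB. Every βOHB library was below every control library, at a log2 fold change of -1.69 ± 0.22 (adjusted p = 5.9e-05). Fcgr4, an activating receptor for selected IgG subclasses, had 3.07, 1.72 and 0.572 CPM in controls and 0.184, 0.222 and 0.577 CPM with βOHB. Control replicate 3 and βOHB replicate 3 were nearly equal and made the groups overlap, while the fitted change was -2.41 ± 0.47 with an adjusted p of 0.00181. Without control replicate 1 the change was -1.78 with an adjusted p of 0.0661, and Fcgr4 was no longer called.

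The inhibitory receptor fell together with the activating ones. Fcgr2b stood at 3.36, 2.42 and 1.23 CPM in controls and at 0.276, 0.178 and 1.02 CPM with βOHB. The groups did not overlap, although the third library of each came close, and the log2 fold change was -2.22 ± 0.43 (adjusted p = 0.00151). Without βOHB replicate 3 the change was -3.33. Fcer1g, the chain that carries the ITAM, had 21.3, 16.2 and 7.22 CPM in controls and 3.58, 3.15 and 7.10 CPM with βOHB. Here too the highest βOHB library and the lowest control library, both replicate 3, nearly met, and the log2 fold change was -1.69 ± 0.31 (adjusted p = 0.00106).

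The kinases differed from each other. Lyn, which is expressed in many cell types, had 29.3, 25.1 and 21.8 CPM in controls and 21.9, 20.8 and 23.8 CPM with βOHB. Its groups overlapped, the log2 fold change was -0.19 ± 0.07 and the adjusted p 0.207, so Lyn did not pass the test. Leaving out control replicate 3 gave -0.29 with an adjusted p of 0.0115. Syk, the kinase that binds the phosphorylated chain, stood at 12.1, 9.82 and 6.73 CPM in controls and at 4.27, 4.04 and 5.10 CPM with βOHB. All βOHB libraries were lower, with a log2 fold change of -1.09 ± 0.19 (adjusted p = 0.000555). Btk, the Tec family kinase, had 2.80, 1.85 and 1.45 CPM in controls and 0.367, 0.311 and 0.887 CPM with βOHB. These groups did not overlap either, and the log2 fold change was -1.94 ± 0.28 (adjusted p = 9.95e-05).

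Across the set, 5 of the 8 genes (Fcgr3, Fcgr2b, Fcer1g, Syk and Btk) had every βOHB myotube library below every control library, which was true of 8.36% of all tested genes. Control replicate 3 was the lowest control library and βOHB replicate 3 the highest βOHB library for all 8 genes. Leaving out 1 of the 6 libraries at a time left between 5 and 8 genes called, with 5 without control replicate 1 and 8 without control replicate 3. Without βOHB replicate 3 the changes lay further from 0 for Fcgr4 (-3.09), Fcgr2b (-3.33) and Btk (-2.56).

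In macrophage cultures no βOHB change of the 8 genes passed the test. edgeR called 0 of 8, with 0 at an unadjusted p below 0.05, and limma-voom and DESeq2 gave the same counts of 0, where 0% of all tested genes were called in edgeR. Fcer1g had 536.9, 520.8 and 553.6 CPM in controls and 531.7, 558.6 and 514.0 CPM with βOHB, and Fcgr3 had 348.5, 348.0 and 357.0 CPM against 370.5, 365.7 and 346.4 CPM. For all 8 genes the control and βOHB libraries overlapped. The log2 fold changes lay between -0.06 (Fcgr1) and 0.08 (Fcgr4). The narrowest 95% interval was that of Lyn, from -0.10 to 0.16, and the widest that of Fcgr4, from -0.36 to 0.51, which bounds the changes that these libraries could hold.

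The difference between the responses of the 2 cultures was tested directly. The βOHB response in myotubes minus that in macrophages was called as lower for 6 of the 8 genes, where 1.62% of all tested genes were called as lower. Those genes were Fcgr4 (-2.49 ± 0.52, adjusted p = 0.00704), Fcgr2b (-2.22 ± 0.45, adjusted p = 0.00536), Btk (-1.98 ± 0.30, adjusted p = 0.000495), Fcgr3 (-1.73 ± 0.25, adjusted p = 0.000495), Fcer1g (-1.68 ± 0.38, adjusted p = 0.0117) and Syk (-1.13 ± 0.22, adjusted p = 0.00422). Fcgr1, at -1.74 ± 0.49, and Lyn, at -0.22 ± 0.10, did not pass, with adjusted p of 0.0692 and 0.514. In a fit of the macrophage and myotube libraries alone, Fcgr3, Fcgr4 and Btk were called, where 0.849% of all tested genes were lower. The count depended on single myotube libraries. It was 2 without control replicate 1 (Fcgr3 and Btk), 3 without βOHB replicate 2, 4 without βOHB replicate 1, 5 without control replicate 2, 7 without βOHB replicate 3 and 8 without control replicate 3. Without βOHB replicate 3 the difference was -3.17 for Fcgr4, -3.33 for Fcgr2b and -2.60 for Btk.

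**Figure D2:**
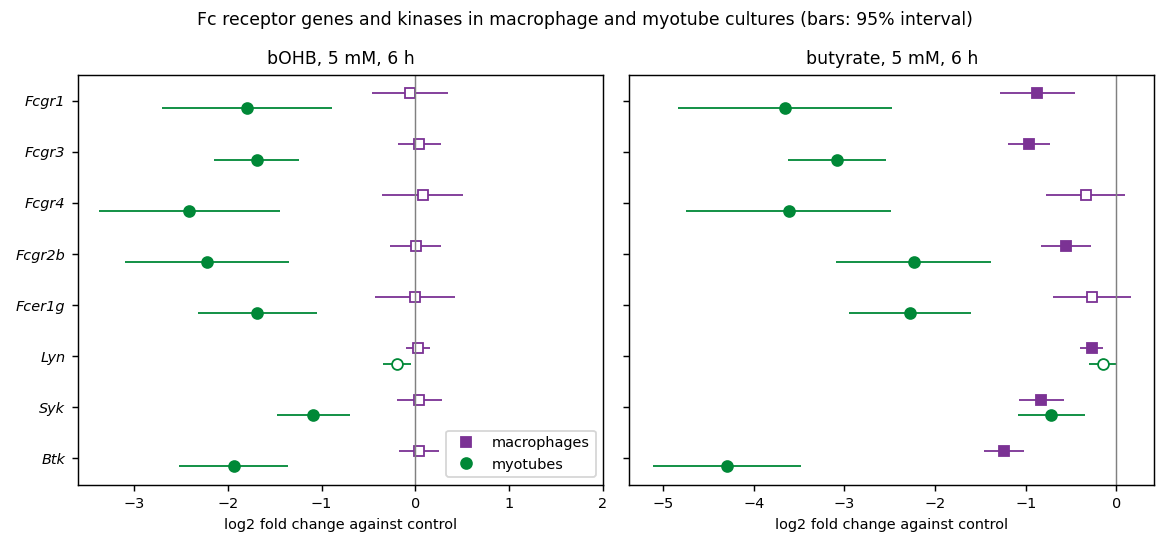
Log2 fold change against control (x axis) of each gene in macrophages (squares) and myotubes (circles) under βOHB (left) and butyrate (right), with 95% intervals as bars and filled symbols for an adjusted p below 0.05 in edgeR. Under βOHB the macrophage values lie between -0.06 and 0.08 and those of myotubes, apart from Lyn, between -1.09 and -2.41.

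Butyrate lowered 7 of the 8 genes in myotubes, again all but Lyn, where 33.4% of all tested genes were lower. With library totals in place of scaling factors, 38.2% of called genes were lower in place of 50.2%, and the median of all genes moved by 0.133. The median log2 fold change of the set was -2.68. Fcgr1 had 0.0407, 0.243 and 0.268 CPM in butyrate replicates 1, 2 and 3, which is 1, 6 and 6 counts, against at least 0.968 CPM in controls, with a log2 fold change of -3.66 ± 0.58 (adjusted p = 2.2e-06). Fcgr3 fell to 0.448, 1.38 and 0.447 CPM (-3.08 ± 0.27, adjusted p = 2.1e-11). Both stood clear of the controls in every library. Fcgr4 had 0.0814, 0.243 and 0.0895 CPM (-3.62 ± 0.55, adjusted p = 1.3e-06), and Fcgr2b 0.122, 1.13 and 0.179 CPM (-2.24 ± 0.42, adjusted p = 2.9e-05). Butyrate replicate 2 was the highest of the 3 for Fcgr2b and approached the lowest control at 1.23 CPM. Without that library the change was -3.91 for Fcgr2b, -3.85 for Fcgr3 and -4.29 for Fcgr4, and without control replicate 1 it was -2.98 for Fcgr4.

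Fcer1g stood at 0.936, 5.95 and 2.24 CPM with butyrate, below all controls, with a log2 fold change of -2.28 ± 0.33 (adjusted p = 5.2e-07), or -3.25 without butyrate replicate 2. Btk was at 0 in butyrate replicate 1 and at 0.162 and 0.134 CPM in the others, which is 0, 4 and 3 counts, and its change of -4.29 ± 0.40 (adjusted p = 9.8e-11) was the largest of the set. A count of 0 allows up to 3 counts. The other kinases changed less. Syk had 3.78, 5.06 and 8.72 CPM, and the third library lay above the lowest control at 6.73 CPM, so that the groups overlapped at a log2 fold change of -0.72 ± 0.18 (adjusted p = 0.000883). Lyn had 21.8, 25.0 and 21.7 CPM and overlapped the controls at -0.15 ± 0.07 (adjusted p = 0.0726), while it was called at -0.25 without control replicate 3 and at -0.22 without butyrate replicate 2.

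The groups did not overlap for 6 of the 8 genes, against 32.5% of all tested genes. In the fit of the 9 myotube libraries alone 6 were called, with Syk at an adjusted p of 0.0635, where 29.8% of tested genes were lower. Without butyrate replicates 2 and 3, the libraries with over 100 CPM of hepatocyte markers, 1 butyrate library remained, whose spread is then assumed to be that of the other groups. In that fit 7 genes were called, where 27.0% of all tested genes were lower, with Fcer1g at -3.96 and Fcgr2b at -4.16, while Btk was at 0 counts in the remaining library. That alternative was chosen after the data were seen.

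In macrophages butyrate lowered 6 of the 8 genes, by less than in myotubes for most, where 33.2% of all tested genes were lower. On library totals 33.3% of called genes were lower in place of 51.0%. Btk fell most, from 71.4, 74.8 and 71.7 CPM in controls to 32.8, 30.5 and 28.9 CPM (log2 fold change -1.24 ± 0.11, adjusted p = 2.1e-11). Fcgr3 had 185.0, 174.0 and 179.6 CPM with butyrate, or 51.1% of its control mean (-0.97 ± 0.11, adjusted p = 1.1e-08). Fcgr1 had 24.3, 23.1 and 21.8 CPM against at least 40.8 CPM in controls (-0.87 ± 0.20, adjusted p = 0.000373). In each case all butyrate libraries lay far below the controls. Syk fell from 354.6, 373.8 and 359.2 CPM to 210.7, 208.1 and 193.6 CPM (-0.83 ± 0.12, adjusted p = 4.6e-07), and Fcgr2b from 217.1, 210.9 and 212.9 to 150.5, 146.5 and 138.1 CPM (-0.56 ± 0.14, adjusted p = 0.000637). Lyn fell from 178.9, 188.7 and 186.7 to 154.6, 150.4 and 153.3 CPM, a change of -0.27 ± 0.06 (adjusted p = 0.000391).

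The Fcer1g chain and Fcgr4 did not pass in macrophages. Fcer1g had 493.4, 407.8 and 432.0 CPM with butyrate (-0.27 ± 0.21, adjusted p = 0.261), and Fcgr4 13.8, 11.3 and 13.4 CPM (-0.34 ± 0.22, adjusted p = 0.169). For both, and for all 8 genes, every butyrate library was below every control library, as for 37.3% of all tested genes. In a fit of the macrophage libraries alone all 8 were called, where 35.0% of tested genes were lower, whereas DESeq2 called 5, without Fcgr2b (adjusted p = 0.0508), and 31.8% of all tested genes as lower. The scale matters for Lyn. With library totals in place of scaling factors, the median of all genes moved by 0.20 under butyrate in macrophages, and Lyn stood at -0.05 with an adjusted p of 0.542.

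Butyrate changed 6 of the 8 genes more in myotubes than in macrophages, where 22.0% of all tested genes were lower in this comparison. On library totals 60.6% of called genes were lower in place of 50.6%. The difference was -3.28 ± 0.62 for Fcgr4, -3.05 ± 0.46 for Btk, -2.78 ± 0.65 for Fcgr1, -2.12 ± 0.30 for Fcgr3, -2.00 ± 0.40 for Fcer1g and -1.68 ± 0.45 for Fcgr2b, with adjusted p between 1.4e-06 (Fcgr3) and 0.00322 (Fcgr2b). Without myotube butyrate replicate 2 it was -2.88 for Fcgr3, -3.95 for Fcgr4, -3.35 for Fcgr2b and -2.98 for Fcer1g, and without myotube control replicate 1 it was -2.64 for Fcgr4. No difference was found for Syk (0.11, 95% interval -0.33 to 0.56) or Lyn (0.12, interval -0.08 to 0.32), although Lyn was called at 0.24 without myotube control replicate 1. The βOHB and butyrate comparisons of a cell type share the same 3 control libraries.

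Macrophage markers moved with the Fc receptor genes in the myotube cultures. Their summed level was 685, 563 and 248 CPM in control replicates 1, 2 and 3, 137, 99.4 and 236 CPM with βOHB, and 35.8, 174 and 61.7 CPM with butyrate. The lowest control and the highest βOHB library were again replicate 3 of each. All 15 markers were lower under βOHB in edgeR (median log2 fold change -1.63), against 2.56% of all tested genes, and all 15 under butyrate (median -2.50), against 33.4%. The markers, too, were chosen with earlier results of these data known. In macrophage cultures 0 of 15 were lower under βOHB, with sums of 27670 to 28590 CPM, and 6 of 15 under butyrate, where 33.2% of all tested genes were lower, with sums of 18080 to 18980 CPM. No macrophage marker was at 0 in a myotube group. Some markers of mast cells (Fcer1a and Tpsb2) and of neutrophils (S100a9, Ngp and Elane) were at 0 in all 9 myotube libraries. Only genes at 0 are named here, and other markers of those cells are not given. Whether such cells were present was not tested.

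Set against the summed macrophage markers of the same library, the levels under βOHB lay close to the controls for some genes and below or above them for others. Fcer1g had 28.8 to 31.1 CPM per 1000 CPM of marker in myotube controls, 26.2 to 31.7 with βOHB and 26.1 to 36.3 with butyrate. The ranges overlapped under βOHB for 7 of the 8 genes, for some of them only through replicate 3. Fcgr2b had 4.90, 4.30 and 4.98 CPM per 1000 CPM of marker in controls and 2.02, 1.79 and 4.31 with βOHB, and Fcgr4 had 4.49, 3.05 and 2.31 against 1.34, 2.23 and 2.44. Btk had 4.09, 3.28 and 5.87 in controls and 2.69, 3.13 and 3.75 with βOHB. In those genes βOHB replicates 1 and 2 lay below all controls. Syk went the other way, with 17.7, 17.4 and 27.2 in controls and 31.3, 40.7 and 21.6 with βOHB. Lyn was the exception, at 42.8 to 88.0 CPM per 1000 CPM of marker in controls, 101 to 210 with βOHB and 144 to 607 with butyrate. Under butyrate the ratios of Fcgr3 (7.25 to 12.5 against 12.6 to 15.3), Fcgr4 (1.40 to 2.27 against 2.31 to 4.49) and Btk (0 to 2.18 against 3.28 to 5.87) were below the controls in every library, and that of Syk was above them (29.1 to 141 against 17.4 to 27.2). The ratios were computed for the 8 genes only, so no share over all tested genes stands beside these counts of overlap. Some rest on few counts, such as Fcgr4 at 2, 6 and 2 and Btk at 0, 4 and 3 counts with butyrate. Each ratio is a description, and the part of macrophage RNA in the results was not tested.

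**Figure D3:**
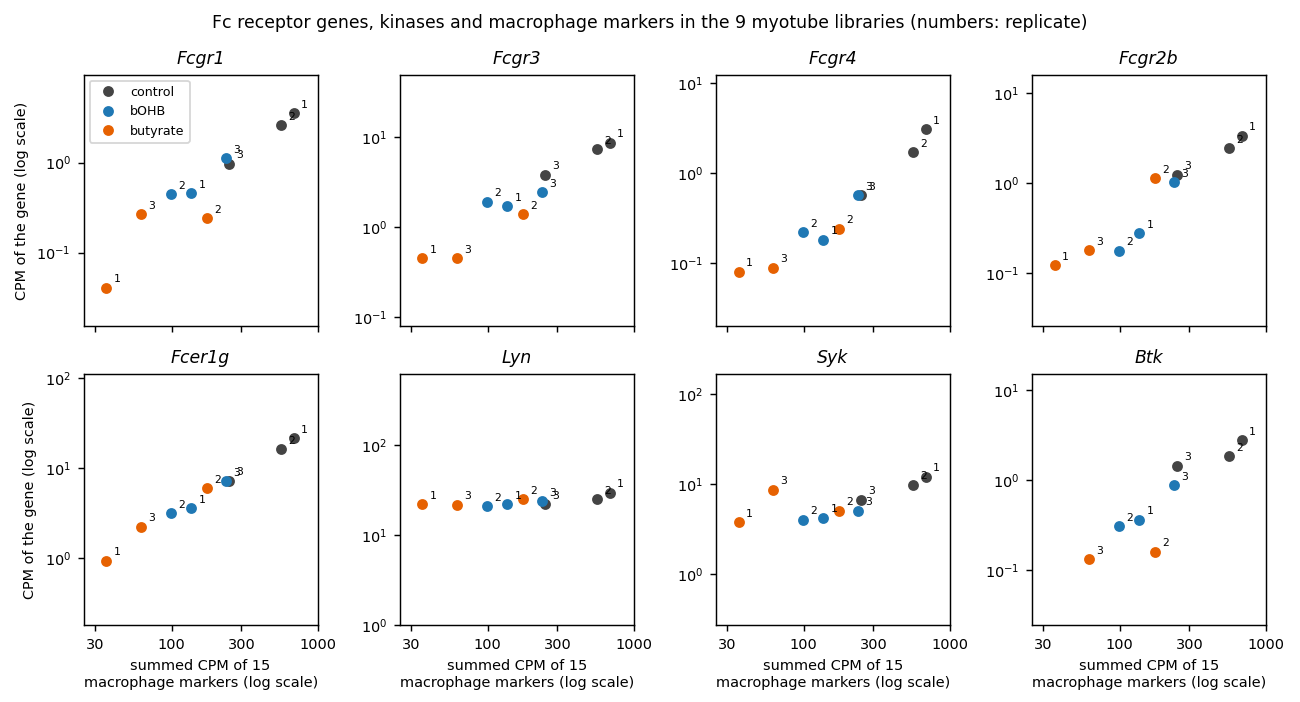
CPM of each gene (y axis, log scale) against the summed CPM of 15 macrophage markers (x axis, log scale) in the 9 myotube libraries, with replicate numbers beside the points. Fcer1g runs from 0.936 CPM at 35.8 CPM of markers to 21.3 CPM at 685, Lyn stays between 20.8 and 29.3 CPM throughout, and the butyrate library with Btk at 0 is not drawn.

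Other genes of the pathway were read from lists by role, chosen with earlier results of these data known. Under βOHB in myotubes 2.56% of all tested genes were lower, and 0% in the fit of myotube libraries alone. Of the 9 tested ITAM adaptors and receptors 6 were lower, among them Tyrobp (the DAP12 chain, 18.7, 15.3 and 5.90 CPM in controls and 2.43, 2.27 and 5.14 CPM with βOHB, log2 fold change -2.01 ± 0.30), Trem2 (a lipid receptor that signals through Tyrobp, -1.74 ± 0.21) and Clec7a (the β-glucan receptor Dectin-1, -2.36 ± 0.34). Of 6 other Fc receptors, only Fcrls was called in edgeR (13.4, 10.5 and 5.50 CPM against 2.16, 1.87 and 3.24 CPM, -2.01 ± 0.34). Trim21, the cytosolic antibody receptor, had 2.20, 1.36 and 1.10 CPM in controls and 0.735, 0.889 and 0.843 CPM with βOHB (adjusted p = 0.219). Fcrl1 had 5, 1 and 2 counts in controls and 0, 1 and 0 with βOHB. Among the other kinases, Fgr at -1.45 ± 0.45 (adjusted p = 0.0866) and Tec at -0.10 ± 0.07 (adjusted p = 0.628) did not pass.

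Among 23 adaptors and effectors, 8 were lower with βOHB in myotubes, against 2.56% of all tested genes, including the small GTPase Rac2 (-1.70 ± 0.29), its exchange factor Vav1 (-1.96 ± 0.34) and the adaptor Lcp2 (-1.68 ± 0.29). Of 15 inhibitors of the pathway 6 were lower, including the adaptor Dok3 (-1.63 ± 0.28) and the inhibitory receptors Sirpa (-0.81 ± 0.14) and Pirb (-1.55 ± 0.28). None of the tested genes on these 5 lists was higher. In macrophages none of them was called under βOHB in edgeR, and the medians of the lists lay between -0.07 and 0.02.

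Butyrate moved the lists in both directions, where 33.4% of all tested genes were lower and 33.1% higher in myotubes. In myotubes 7 of 9 ITAM adaptors and receptors were lower, including Trem2 (-3.64 ± 0.28), Clec4d (a C-type lectin receptor, -3.83 ± 0.37) and Clec7a (-3.93 ± 0.42). Of the other Fc receptors 2 were lower and 1 higher. Fcrls had 0.407, 4.53 and 1.43 CPM (-2.18 ± 0.35), Fcrl1 had 0, 0 and 1 counts, and Pigr, the epithelial receptor for polymeric immunoglobulin, was at 0 in all controls and at 0.0407, 0.769 and 0.358 CPM with butyrate, highest in the library that also had most hepatocyte marker RNA. Among the other kinases 5 were lower, with Src at -1.25 ± 0.12 and Fgr at 1, 2 and 1 counts against 16, 17 and 6, and 1 was higher, Tec (9.86 to 11.2 CPM in controls, 24.0 to 24.6 with butyrate, 1.19 ± 0.07). Of 23 adaptors and effectors 7 were lower, near the share of all genes, and 11 higher, such as Gab2 (-0.90 ± 0.06) against Prkcd (1.13 ± 0.07) and Malt1 (1.45 ± 0.10). Of 15 inhibitors 10 were lower, among them the lipid phosphatase Inppl1 (-1.36 ± 0.07) and Pirb (-3.81 ± 0.38), and 1 higher, the adaptor Pag1 (1.70 ± 0.11).

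In macrophages, where 33.2% of all tested genes were lower and 31.9% higher, butyrate lowered 6 of 9 ITAM adaptors and receptors and raised 1. Clec4d fell from 486.9, 517.7 and 516.4 CPM to 83.6, 74.3 and 81.5 CPM (-2.67 ± 0.11), Clec7a changed by -1.97 ± 0.18 and Clec4n, which signals through Fcer1g, by -2.30 ± 0.26. Of 6 other Fc receptors, 2 were lower (Fcrlb at -2.18 ± 0.29 and Fcrl1 at -0.73 ± 0.19) and 1 was higher, Fcgrt, the neonatal Fc receptor (0.16 ± 0.06). Among 7 other kinases, Src was lower (-1.28 ± 0.12) and 3 were higher, including Fyn (0.72 ± 0.07) and Tec (0.27 ± 0.06). Of 23 adaptors and effectors 12 were lower, with Gab2 at -1.59 ± 0.05 and Blnk at -1.77 ± 0.12, and 5 higher, with Plcg1 at 0.98 ± 0.06. Of the inhibitors 11 were lower and 2 higher. Sirpa, which restrains phagocytosis on binding CD47, fell from 1520, 1578 and 1529 CPM to 276.6, 276.1 and 273.0 CPM (-2.49 ± 0.13), and Inppl1 and Cblb changed by -1.55 ± 0.07 and -1.21 ± 0.06.

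**Figure D4:**
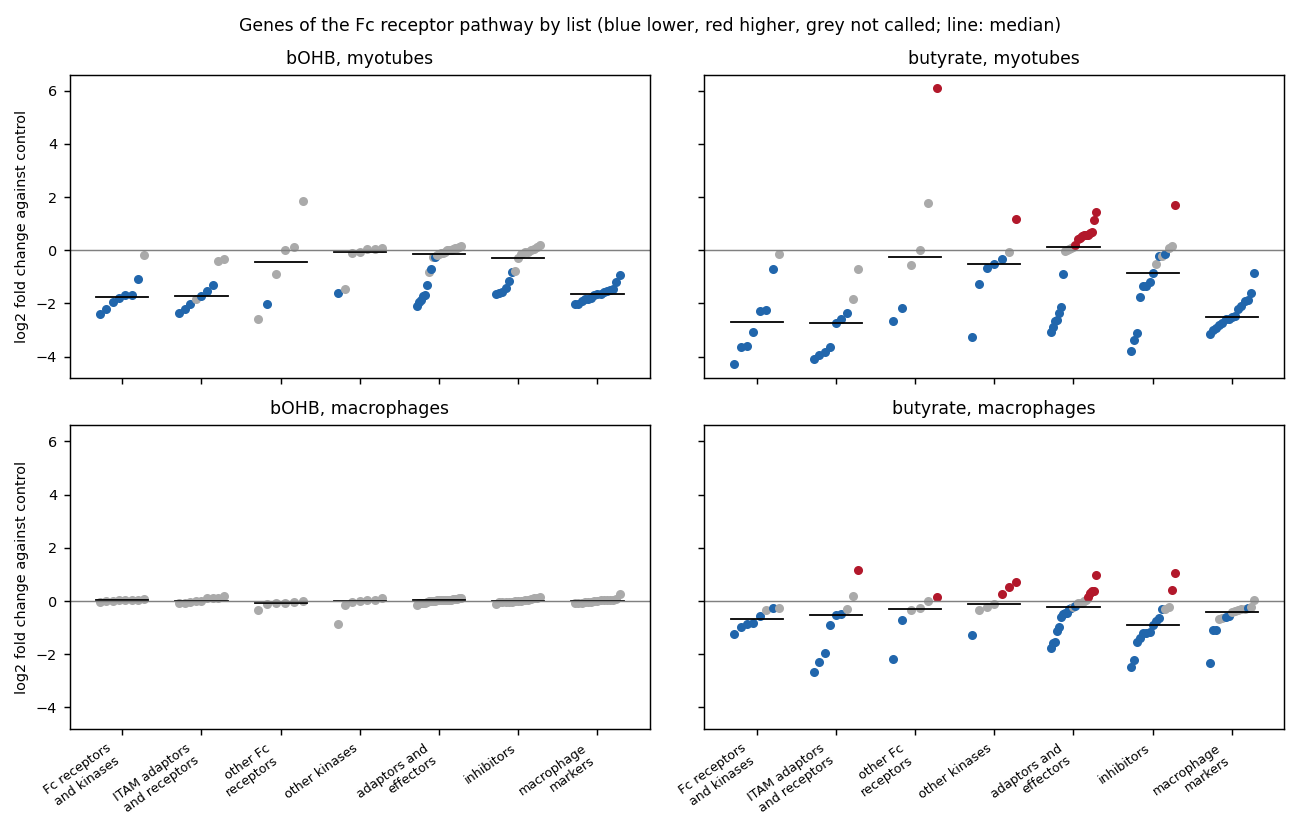
Log2 fold change against control (y axis) of each tested gene by list in myotubes (top) and macrophages (bottom) under βOHB (left) and butyrate (right), with 1 point per gene, blue lower, red higher, grey not called, and a line at the median of the list. Under βOHB in myotubes the medians are -1.75 for the Fc receptors and kinases, -1.74 for the ITAM list and -1.63 for the macrophage markers, and all lists in βOHB-treated macrophages lie near 0.

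At the same dose and time, butyrate and βOHB, which differ by the hydroxyl group, were compared directly over the 8 genes in 4 cell types, with p adjusted over all tested genes. In myotubes butyrate gave lower values for 3 of the 8, where 32.9% of all tested genes were lower. Those were Btk (-2.35 ± 0.55, adjusted p = 0.000391), Fcgr3 (-1.39 ± 0.33, adjusted p = 0.00058) and Fcgr1 (-1.86 ± 0.76, adjusted p = 0.0326). For the rest no difference was found, with 95% intervals of -2.83 to 0.42 for Fcgr4, -1.24 to 1.21 for Fcgr2b, -1.39 to 0.20 for Fcer1g, -0.04 to 0.79 for Syk and -0.11 to 0.20 for Lyn. These intervals are wide for the receptors and do not show that the compounds act alike. Without butyrate replicate 2, 5 were lower (also Fcgr2b and Fcer1g, at -1.69 and -1.56). Fcgr1 lost its call without βOHB replicate 3 (-1.29) or butyrate replicate 1 (-1.38), and without butyrate replicate 1 Syk was higher with butyrate (0.61). The change of Fcgr3 was -2.16 without butyrate replicate 2, and that of Btk -1.73 without βOHB replicate 3. On library totals the share of lower among called genes was 32.9% in place of 49.9% in myotubes, 32.9% in place of 50.8% in macrophages and 38.2% in place of 49.6% in adipocytes, and Lyn was called as higher in myotubes (0.24) and adipocytes (0.25). With only the myotube libraries in the fit Fcgr3 and Btk were called and Fcgr1 was not (adjusted p = 0.0554), where 28.1% of tested genes were lower.

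In macrophages 6 of the 8 were lower with butyrate than with βOHB, where 32.8% of all tested genes were lower, with Btk at -1.28 ± 0.11, Fcgr3 at -1.01 ± 0.11, Syk at -0.87 ± 0.12, Fcgr1 at -0.82 ± 0.20, Fcgr2b at -0.56 ± 0.14 and Lyn at -0.30 ± 0.06, a call Lyn lost on library totals (-0.08). The intervals of Fcgr4 (-0.86 to 0.02) and Fcer1g (-0.70 to 0.16) included 0. With only the macrophage libraries in the fit all 8 genes were called, Fcgr4 at -0.38 and Fcer1g at -0.23 among them, where 34.6% of tested genes were lower. In adipocytes Btk (-1.18 ± 0.23) and Fcgr3 (-0.69 ± 0.15) were lower with butyrate, where 29.5% of all tested genes were, and 3 were called without βOHB replicate 3, which added Fcgr1 (-0.75). Fcgr1 was also called without the filter on low counts (-0.45, adjusted p = 0.0236), in a fit that called 9496 of 32246 genes. In hepatocytes Fcgr2b (-3.84 ± 0.28) and Lyn (-0.20 ± 0.07) were lower with butyrate, where 33.0% were, and Lyn lost its call on library totals, without the filter on low counts, with only the libraries compared and without βOHB replicate 1 (adjusted p = 0.178, 0.0745, 0.0587 and 0.111). For Syk there the interval was -2.63 to 0.08, while DESeq2, the fit without the filter on low counts and the fit of the hepatocyte libraries alone called it as lower (adjusted p = 0.0154, 0.0119 and 0.0243). The same 3 fits called Fcgr1 as lower (adjusted p = 0.0231, 0.0124 and 0.0190), at 2, 5 and 3 counts with βOHB and 0, 0 and 1 with butyrate.

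Adipocyte cultures held the Fc receptor genes mostly at or above the level of myotubes, and no βOHB change passed the test. edgeR called 0 of 8, with 1 at an unadjusted p below 0.05 (Fcgr1, 8.96, 4.74 and 5.87 CPM in controls and 6.25, 3.91 and 1.98 CPM with βOHB), and limma-voom and DESeq2 also called 0 with 1 at that unadjusted level, where 0.00652% of all tested genes were called in edgeR. Control and βOHB libraries overlapped for all 8 genes. Without the filter on low counts Fcgr1 was called (-0.68, adjusted p = 0.00199), in a fit that called 192 of 32246 genes. The summed macrophage markers were 615.7 to 695.6 CPM in controls and 654.6 to 688.7 CPM with βOHB, and 0 of 15 were called.

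Under butyrate, 3 of the 8 genes fell in adipocytes, where 30.3% of all tested genes did, and 1 rose, where 30.7% did. Btk had 2.90, 2.11 and 2.66 CPM in controls and 0.887, 1.196 and 1.122 CPM with butyrate (-1.24 ± 0.23, adjusted p = 2.4e-05), Fcgr1 had 3.50, 2.84 and 2.87 CPM (-1.09 ± 0.28, adjusted p = 0.00135), and Fcgr3 fell from 19.3, 16.8 and 17.2 to 10.5, 10.2 and 9.18 CPM (-0.83 ± 0.15, adjusted p = 1.5e-05). All butyrate libraries were below the controls for these 3 genes, as for 33.6% of all tested genes. Lyn rose from 20.1, 19.3 and 21.0 to 24.3, 22.8 and 22.8 CPM (0.21 ± 0.08, adjusted p = 0.0175), a call lost without control replicate 2, butyrate replicate 1 or the filter on low counts (adjusted p = 0.0744, 0.0741 and 0.158). Fcer1g had 14.3, 16.5 and 15.7 CPM in controls and 14.5, 15.2 and 15.0 CPM with butyrate, with no change passing the test (-0.06 ± 0.27). Fcgr2b, Fcgr4 and Syk overlapped the controls. The macrophage markers summed to 557.6 to 594.4 CPM with butyrate, and 2 of 15 were lower.

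Hepatocyte cultures had little RNA of most of these genes, apart from Lyn and Fcgr2b. Fcgr1, Fcgr3, Fcgr4 and Btk had at most 8 counts in any hepatocyte library and Fcer1g and Syk at most 29. No βOHB change passed the test, with 0 called by edgeR and 0 at an unadjusted p below 0.05, and with 0 called and 1 at that unadjusted level in both limma-voom and DESeq2, where 0.00652% of all tested genes were called in edgeR. Fcgr2b had 14.2, 12.2 and 15.7 CPM in controls and 14.4, 15.3 and 16.0 CPM with βOHB. On the CPM scale every βOHB library was below every control library for Fcgr3 (8, 5 and 4 counts in controls against 1, 3 and 1) and Syk (0.753 to 1.12 CPM against 0.473 to 0.702 CPM), as for 3.56% of all tested genes, and the groups overlapped for the other 6 genes.

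With butyrate Fcgr2b fell in hepatocyte cultures to 0.954, 1.14 and 1.08 CPM, or 7.53% of its control mean (log2 fold change -3.72 ± 0.28, adjusted p = 9.6e-13). The libraries of each group lay close together and far from the other group. In all, 3 of the 8 genes were lower, where 32.4% of all tested genes were. Lyn fell from 51.9, 50.9 and 51.1 to 43.2, 43.8 and 44.0 CPM (-0.23 ± 0.07, adjusted p = 0.00478), a call lost on library totals (-0.16, adjusted p = 0.0594). Syk fell from 12, 18 and 19 counts to 3, 4 and 7 counts (-1.96 ± 0.61, adjusted p = 0.00554). Fcgr1 had 3, 4 and 4 counts in controls and 0, 0 and 1 with butyrate and was not called (adjusted p = 0.114). Fcer1g, at 0.887 to 1.82 CPM in controls and 0.636 to 0.721 CPM with butyrate, was not called either (adjusted p = 0.355). At this depth no difference was detectable for Fcgr3, Fcgr4 or Btk. With only the hepatocyte libraries in the fit 5 of the 8 genes were called, where 9612 of 15039 tested genes were called.

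Endothelial and Kupffer cell markers were lower under butyrate together with Fcgr2b, where 32.4% of all tested genes were lower. The 5 endothelial markers summed to 66.4 to 74.2 CPM in hepatocyte controls, 65.3 to 77.0 CPM with βOHB and 20.2 to 23.6 CPM with butyrate, and all 5 were lower under butyrate (median log2 fold change -2.05). The 5 Kupffer cell markers summed to 7.44 to 8.84 CPM in controls and 2.92 to 3.66 CPM with butyrate, and both tested ones, Marco and Cd5l, were lower. Of 15 macrophage markers 2 were lower, a smaller share than that of all tested genes, and 13 were not called. Those 2 were Cd14 (205.9 to 228.8 CPM in controls, 35.0 to 39.4 with butyrate) and Mrc1 (3.08 to 4.14 and 1.01 to 1.38 CPM). The part of these cells in the fall of Fcgr2b was not tested.

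**Figure D5:**
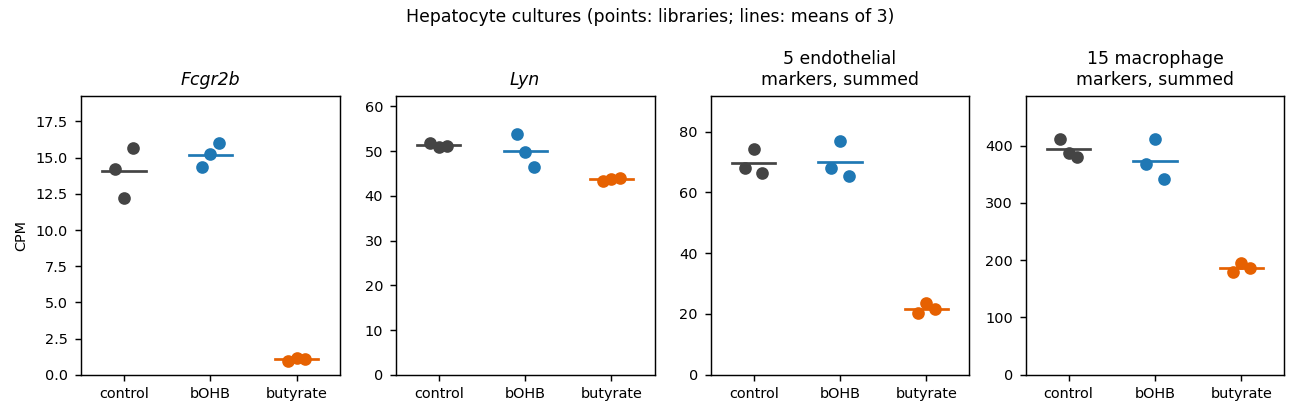
CPM (y axis, from 0) of Fcgr2b, Lyn, 5 summed endothelial markers and 15 summed macrophage markers in the 9 hepatocyte libraries, with 1 point per library and a line at the mean of 3. The macrophage sum weighs its markers unevenly. In hepatocyte controls Cd14 stood at 60.7% of its level in macrophage controls, against a median of 0.239% for the 15 markers. Butyrate libraries lie between 0.954 and 1.14 CPM for Fcgr2b and between 20.2 and 23.6 CPM for the endothelial markers, below all control and βOHB libraries.

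The genes outside the set whose mean levels over the 12 groups were most like the mean profile of the set were Hcls1, a substrate of Lyn and Syk in blood cells (Pearson r = 0.998), Arhgap25 (0.996), Itgb2, the β chain of leukocyte integrins (0.996), AI662270 (0.995) and Rgs1 (0.995). Among the 8 genes Btk (0.991) and Fcer1g (0.988) followed that profile most closely and Lyn (0.755) and Fcgr2b (0.860) least. These are descriptions over 12 groups that share their cell types, and the contrast between macrophages and the other cells makes up much of each profile.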

How the data were processed

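Total RNA was sequenced as paired ends on a BGISEQ-500. The authors quantified transcripts with Salmon 1.2.1 and summarised them with tximport, and the deposited table holds estimated counts per gene for 36 libraries, with GRCm38.p6 named in the submitters' processing notes. The methods describe a scaling by transcript length, but 55.6% of values above 0 were whole (within 1e-09), and whether the deposited values carry that scaling was not settled. They were used as estimated counts. Counts were rounded, scaled by TMM and tested with edgeR 4.0.16 (R 4.3.3, quasi-likelihood) in 1 fit of 12 group means, for genes over 1 CPM in at least 6 libraries, with Benjamini-Hochberg adjustment over 15340 genes and calls at an adjusted p below 0.05. Gene symbols and positions came from GENCODE M21. Members, lists and markers were chosen with earlier results of these data known. Pathway genes named in the text are the 3 tested genes of smallest p in each list, for βOHB in myotubes and butyrate in myotubes and macrophages. Some items that this rule would name are not reported here. Cd14, Mrc1, Marco and Cd5l were named after their values were seen. limma-voom (limma 3.58.1), DESeq2 1.42.0, other scalings and filters, a replicate block and fits without single libraries were alternatives. Same-numbered libraries deviated together in all pairs (r over 0.1) for 0 of 12 pairs of groups, so the numbers were not taken to pair them. Depth was 18366289 to 23221473 counts a library, and a count of 0 allows up to 3, which covers counting error only.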

Additional observations from a re-analysis of the deposited data

Results flagged for a closer look

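The difference between the responses of myotube and macrophage cultures passed the edgeR test for the genes below, on the log2 scale, as myotubes minus macrophages. Under βOHB it was -1.73 for Fcgr3, -2.49 for Fcgr4, -2.22 for Fcgr2b, -1.68 for Fcer1g, -1.13 for Syk and -1.98 for Btk. Under butyrate it was -2.78 for Fcgr1, -2.12 for Fcgr3, -3.28 for Fcgr4, -1.68 for Fcgr2b, -2.00 for Fcer1g and -3.05 for Btk. The 15 macrophage markers were also lower in treated myotubes, and their part in these differences was not tested.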

How the results depend on the processing

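Counts of the 8 genes called depended on the fit and on low counts. With only the libraries compared in the fit, edgeR called 0 genes for βOHB in myotubes (7 at an unadjusted p below 0.05, 6 by limma-voom and 7 by DESeq2 on all libraries), 5 for butyrate in hepatocytes and 3 for the βOHB difference between myotubes and macrophages. Over all tested genes those fits called 0 of 15299, 9612 of 15039 and 130 of 15315. With no filter on low counts edgeR called 1 for βOHB in adipocytes, 5 for butyrate in hepatocytes and 5 for butyrate against βOHB in myotubes. Of all 32246 genes in that fit, 192, 10031 and 10878 were called in these comparisons. For butyrate against βOHB in hepatocytes DESeq2 called 4 and library totals 1, where 9705 and 9672 of 15340 genes were called. Leaving out 1 library gave 2 to 8 for the βOHB difference, 2 to 5 for butyrate against βOHB in myotubes and 1 to 2 in hepatocytes. The causes were not tested. With the number as a replicate block the counts were 7 for βOHB and 7 for butyrate in myotubes and 6 for butyrate in macrophages, and the block changed no count of called members. No result changed sign past its test. The fit without myotube butyrate replicates 2 and 3 was chosen after the data were seen. Depth limits Fcgr1, Fcgr3, Fcgr4 and Btk in hepatocytes, at 8 counts or fewer a library. It also limits Fcgr1, Fcgr4, Fcgr2b and Btk in treated myotubes, where Fcgr4 had 2 to 13 counts a library.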
